A study of Mus musculus with 6 samples.

Results

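The free cytosolic aminoacyl-tRNA synthetases are the enzymes of the cytosol that load amino acids onto tRNAs without being part of the large multisynthetase complex. Its members were taken by name: 10 genes (Aars, Cars, Gars, Hars, Nars, Sars, Tars, Vars, Wars and Yars) of the 39177 in the count files, with all 10 found. The family itself was chosen by the knockout to control fold changes of Sars, Gars and Aars in these data, so the differences between the groups are given here as a description, and no p is given for the members. The libraries hold RNA of crude heart mitochondria from C57BL/6N mice aged 3 to 4 weeks. The 3 control mice carried loxP sites around exon 3 of Polrmt on both alleles (L/L) and no cre, although a genotype label calls them Polrmt +/+. The 3 knockout mice (L/L, cre; labelled Polrmt -/-) carried the same alleles and a cre driven by the muscle creatine kinase promoter, which acts in muscle cells, so the other cells of the heart keep the gene. Polrmt encodes the RNA polymerase of mitochondria, and the study asks what its loss does to gene expression. Polrmt itself had 3, 2 and 1 counts in controls and 2, 5 and 1 in knockouts, and a count over the whole gene does not resolve exon 3.

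Each synthetase joins 1 amino acid to its tRNAs, using ATP, and the charged tRNA is then carried to the ribosome by elongation factor 1A. The enzymes fall into 2 unrelated classes with different folds of the catalytic domain: of the members, Cars, Vars, Wars and Yars are class I, and Aars, Gars, Hars, Nars, Sars and Tars are class II. Most mitochondria-bound synthetases are made from separate nuclear genes, whereas Gars encodes both the cytosolic and the mitochondrial glycyl enzyme. Many genes for cytosolic synthetases are known targets of ATF4, the transcription factor of the integrated stress response, which binds a composite element with the core TGATGNAA.

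Promoter windows from RefSeq (GRCm38.p6), reaching from 250 bases before to 50 bases after an annotated start, matched 5 of the 10 members: Sars, Gars, Aars, Yars and Tars. Cars, Hars, Nars, Vars and Wars had no entry. The 5 windows are shown because these members include the 4 with the largest differences between the groups. Letters in capitals mark matches to TGATGNAA, searched on both strands and therefore also seen as TTNCATCA. Each is written 5′ to 3′ along the strand of the gene.
Sars promoter, chr3:108445210-108445509, minus strand: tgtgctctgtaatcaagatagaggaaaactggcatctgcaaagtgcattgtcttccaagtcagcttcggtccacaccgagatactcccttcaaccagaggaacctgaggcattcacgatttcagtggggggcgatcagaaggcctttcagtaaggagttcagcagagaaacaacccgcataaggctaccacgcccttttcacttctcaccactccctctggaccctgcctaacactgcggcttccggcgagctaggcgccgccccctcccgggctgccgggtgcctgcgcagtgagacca
Gars promoter, chr6:55037751-55038050, plus strand: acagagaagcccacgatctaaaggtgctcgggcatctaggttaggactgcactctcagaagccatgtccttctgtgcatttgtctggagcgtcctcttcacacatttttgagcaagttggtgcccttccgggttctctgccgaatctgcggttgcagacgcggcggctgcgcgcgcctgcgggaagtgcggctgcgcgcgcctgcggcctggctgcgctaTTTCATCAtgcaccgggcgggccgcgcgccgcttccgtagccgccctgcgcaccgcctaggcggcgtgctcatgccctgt
Aars promoter, chr8:111033592-111033891, plus strand: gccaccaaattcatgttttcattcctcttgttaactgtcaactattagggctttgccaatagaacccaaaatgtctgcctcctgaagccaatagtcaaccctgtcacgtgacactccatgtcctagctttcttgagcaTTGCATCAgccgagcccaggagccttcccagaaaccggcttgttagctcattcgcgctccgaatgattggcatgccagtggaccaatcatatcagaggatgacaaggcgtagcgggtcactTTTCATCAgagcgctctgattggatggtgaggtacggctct
Yars promoter, chr4:129189653-129189952, plus strand: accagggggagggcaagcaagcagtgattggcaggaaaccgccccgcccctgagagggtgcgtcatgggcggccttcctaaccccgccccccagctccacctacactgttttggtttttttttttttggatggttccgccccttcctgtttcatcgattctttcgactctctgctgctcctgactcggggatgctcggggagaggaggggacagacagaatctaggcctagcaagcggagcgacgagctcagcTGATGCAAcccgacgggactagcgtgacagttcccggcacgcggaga
Tars promoter, chr15:11399609-11399908, minus strand: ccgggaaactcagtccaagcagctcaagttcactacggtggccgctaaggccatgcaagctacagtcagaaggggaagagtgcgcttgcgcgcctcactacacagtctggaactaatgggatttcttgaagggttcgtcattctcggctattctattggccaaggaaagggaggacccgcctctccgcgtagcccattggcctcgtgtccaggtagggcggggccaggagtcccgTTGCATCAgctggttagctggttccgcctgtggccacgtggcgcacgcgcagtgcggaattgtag
The motif was present in 4 of the 5 windows, against 3.97% of all 32851 windows and 2.05% of the 3459 windows of other tested nuclear genes. The narrower form TGATGCAA, each match of which is also a match to TGATGNAA, was present in 3 of the 5 (Aars, Tars and Yars), against 0.895% of all windows. Aars held 2 matches, 1 from 112 to 105 bases upstream of the start and 1 beginning 9 bases downstream of it. The match of Gars lay 30 to 23 bases and that of Tars 15 to 8 bases upstream, and that of Yars began 3 bases downstream. The window of Sars held these letters on neither strand. A further motif, CCAAT, was in 3 of the 5 windows and in 37.4% of all. A match describes letters only and was not tied to binding of any factor. The starts are those of the RefSeq table, and in all 5 genes they differ from the outermost start in the GENCODE M21 annotation used for the gene positions.

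The members were sparsely counted, at 139 counts in the 3 controls together and 841 in the 3 knockouts. All 10 passed the low-count filter, and all did so through the knockouts: each reached the filter's level of 4.88 CPM (counts scaled to 1000000 per library, here by the total) in all 3 knockouts, and none reached it in all 3 controls. Their entry into the test thus depended on the knockouts, so counts over the members carry no weight as support. In the fit across all genes (edgeR quasi-likelihood test, adjusted p under 0.05) 8 of the 10 were called higher in knockouts and 0 lower, where 6.66% of the 3363 tested genes were called higher and 6.78% lower. With no low-count filter the fit also called 8 higher, against 1.38% of 14236 genes, and DESeq2 called 4, against 2.65%. The rule used this contrast, so nothing is read from these shares. In CPM scaled by TMM, which sets the bulk of nuclear transcripts to no change, all 3 knockouts lay above all 3 controls in 9 of the 10 members and in 15.2% of tested genes. Hars was the member whose groups overlapped. The median log2 fold change of the 10 was 1.91, against 0.00 over all tested genes. Values are levels in the crude mitochondrial preparation, in which fewer cells of a type and less RNA per cell cannot be told apart.

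**Figure D1:**
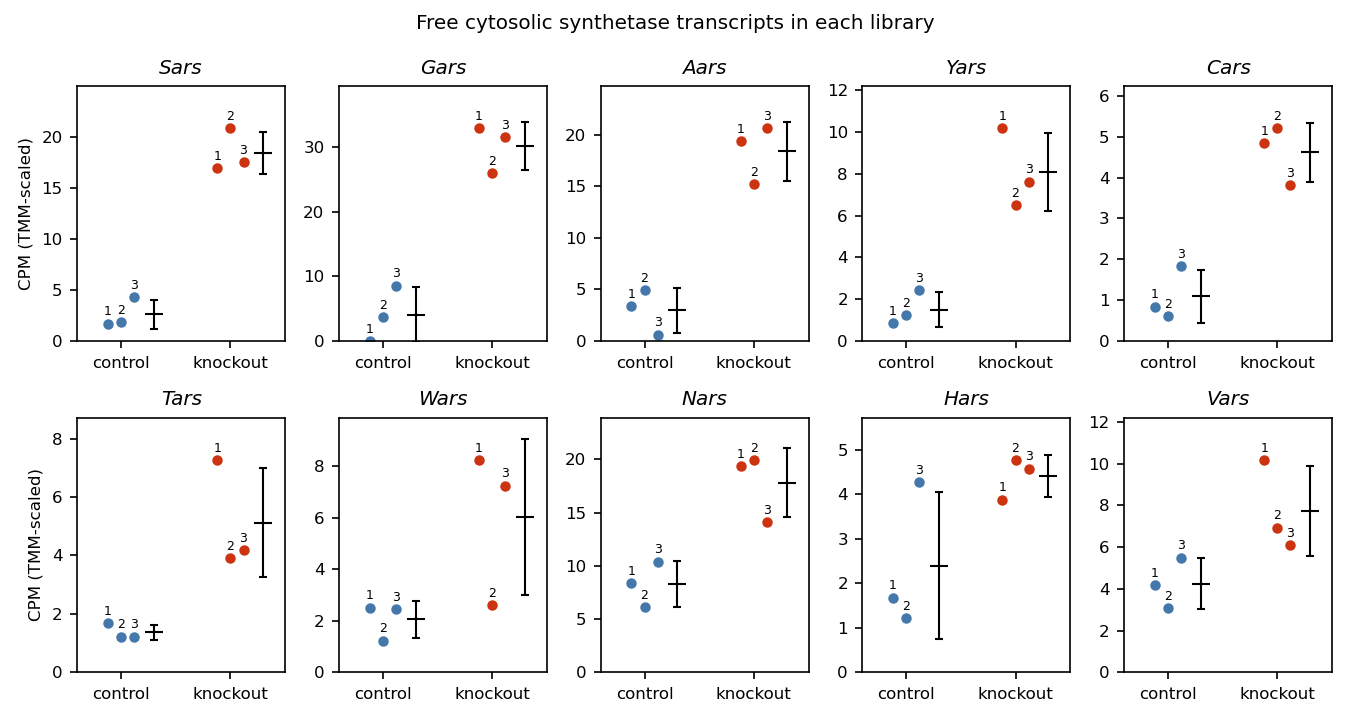
TMM-scaled CPM (y axis, from 0, with its own range in each panel) of the 10 free cytosolic synthetases in the 3 control and 3 knockout libraries; numbers are replicates, and bars at the right of each group show the mean ± SD (cut off at 0 for the Gars controls). The panels run from the largest to the smallest fold change, and the points of the groups overlap in Hars.

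The largest differences were in class II, in Sars, Gars and Aars, whose fold changes chose the family. Sars, the seryl-tRNA synthetase (ENSMUSG00000068739; GRCm38 chromosome 3, 108424865 to 108445209), was counted 2, 3 and 7 times in controls and 35, 48 and 46 times in knockouts. The highest control lay at 4.28 CPM and the lowest knockout at 16.96. The mean was 2.60 ± 1.46 CPM in the first group and 18.4 ± 2.08 in the second (SD over 3 libraries). The fitted difference was 6.73-fold, with a log2 fold change of 2.75 ± 0.35 (SE).

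Gars, which loads glycine (ENSMUSG00000029777, chromosome 6, 55038007 to 55079500), had 0, 6 and 14 counts in controls and 68, 60 and 83 in knockouts. Control 1, with none, and control 3 lay far apart, while the knockouts were close to each other. Means were 4.08 ± 4.29 CPM for controls and 30.2 ± 3.68 for knockouts (SD over 3 libraries), and the log2 fold change was 2.74 ± 0.32 (SE), or 6.68-fold. Without control 3 the log2 fold change was 3.79.

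Aars, the alanyl-tRNA synthetase, an enzyme that also edits mischarged tRNA (ENSMUSG00000031960, chromosome 8, 111033144 to 111057664), had 4, 8 and 1 counts in controls and 40, 35 and 54 in knockouts. Here control 3 was the lowest control, opposite to its place in Gars. Control libraries averaged 2.95 ± 2.17 CPM and knockout libraries 18.4 ± 2.84 (SD over 3 libraries), a 6.21-fold difference. The log2 fold change was 2.63 ± 0.35 (SE), with values of 3.33 without control 2 and 2.10 without control 3. Its exons share 1326 bases on the same strand with Exosc6, a subunit of the RNA exosome that is not analysed here, so part of its counts is uncertain.

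Tars, the threonyl-tRNA synthetase (ENSMUSG00000022241, chromosome 15, 11382301 to 11399665), had 2 counts in each control and 15, 9 and 11 in knockouts. The knockouts lay above the controls, with knockout 1 the highest. The log2 fold change was 1.85 ± 0.52 SE, and the call was lost without control 2, control 3 or knockout 1.

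Nars, which loads asparagine (ENSMUSG00000024587, chromosome 18), was the member with the most counts in controls, at 10, 10 and 17, and had 40, 46 and 37 in knockouts. Its groups did not overlap, but its difference was one of the smaller ones of the family: 2.12-fold, from 8.30 ± 2.13 CPM to 17.8 ± 3.22 (SD over 3 libraries), with a log2 fold change of 1.08 ± 0.27 (SE). DESeq2 did not call Nars, nor did it call Tars, Cars or Wars.

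Hars, the histidyl-tRNA synthetase (ENSMUSG00000001380, chromosome 18), had 2, 2 and 7 counts in controls and 8, 11 and 12 in knockouts. Control 3, at 4.28 CPM, lay above knockout 1, at 3.88 CPM. The log2 fold change of 0.83 ± 0.46 SE was not called, and it was 1.60 without control 3, also not called. Its exons share 195 bases with those of Hars2, the mitochondrial histidyl enzyme on the opposite strand, and whether reads were counted by strand was not stated in the labels.

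Among the class I members Yars differed most. Yars, the tyrosyl-tRNA synthetase (ENSMUSG00000028811, chromosome 4, 129189760 to 129219607), had 1, 2 and 4 counts in controls and 21, 15 and 20 in knockouts, with no overlap. Averages were 1.50 ± 0.838 CPM and 8.10 ± 1.88 (SD over 3 libraries), 4.95-fold apart, and the log2 fold change was 2.31 ± 0.49 (SE). Its exons share 30 bases with C77080 on the opposite strand, a gene with 10 control and 7 knockout counts in all.

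Cars, the cysteinyl-tRNA synthetase (ENSMUSG00000010755, chromosome 7, 143557230 to 143600090), had 1, 1 and 3 counts in controls and 10, 12 and 10 in knockouts. With 5 control counts in all, its ratio of counts per effective library was 4.08 with a 95% Poisson interval from 1.58 to 13.4. The fitted log2 fold change was 1.97 ± 0.54 SE, and 2.59 without control 3. It was no longer called once control 1, control 2, knockout 1 or knockout 2 was left out.

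Wars, the tryptophanyl-tRNA synthetase, which interferon is known to induce (ENSMUSG00000021266, chromosome 12, 108860030 to 108894174), had 3, 2 and 4 counts in controls and 17, 6 and 19 in knockouts. Knockout 2, at 2.60 CPM, lay just above the highest control, at 2.51 CPM. The log2 fold change was 1.54 ± 0.47 SE, and Wars was not called when control 2, control 3, knockout 1 or knockout 3 was omitted.

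Vars, the valyl-tRNA synthetase (ENSMUSG00000007029, chromosome 17, 35000987 to 35016322), had 5, 5 and 9 counts in controls and 21, 16 and 16 in knockouts. Its groups did not overlap in CPM, at 3.06 to 5.50 in controls and 6.10 to 10.2 in knockouts. The log2 fold change of 0.83 ± 0.39 SE was not called.

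Pooled over genes, the 4 class I members had 40 control and 183 knockout counts, a ratio per effective library of 2.92 (95% Poisson interval 2.06 to 4.22), and the 6 class II members had 99 and 658, a ratio of 4.24 (3.43 to 5.29). The intervals overlap, and both classes held members with small and with large differences. Sars, Gars and Aars, whose fold changes chose the family, are all class II, so nothing is read from the larger class II ratio. All such intervals cover counting error only: without molecular identifiers, reads are not independent molecules. The authors' deposited table, which does not state the direction of its fold changes, lists 9 of the 10 members, without Gars, with log2 fold changes from 0.93 to 2.84, all 9 above 0 and 6 with a false discovery rate under 0.05.

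Summed over the family, the 3 controls gave 30, 41 and 68 counts and the 3 knockouts 275, 258 and 308. Per 100000 nuclear counts outside 5 loci that collect ribosomal RNA reads, this was 39.0, 38.1 and 62.2 in controls and 218, 179 and 188 in knockouts. The exact binomial 95% intervals were 26.3 to 55.7, 27.3 to 51.7 and 48.3 to 78.8 in controls, and the lowest bound of a knockout was 158. Group means were 46.4 ± 13.7 and 195 ± 20.1 (SD over 3 libraries), so that knockouts were 4.20 times as high. Control 3 was the highest control in 7 of the 10 members, and without it the ratio of the means was 5.06. The sums include Sars, Gars and Aars, whose fold changes chose the family. These genes held 8.63%, 14.4% and 9.35% of the family's control counts and 15.3%, 25.1% and 15.3% of its knockout counts. The ratio of the sums thus carries no weight as support.

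**Figure D2:**
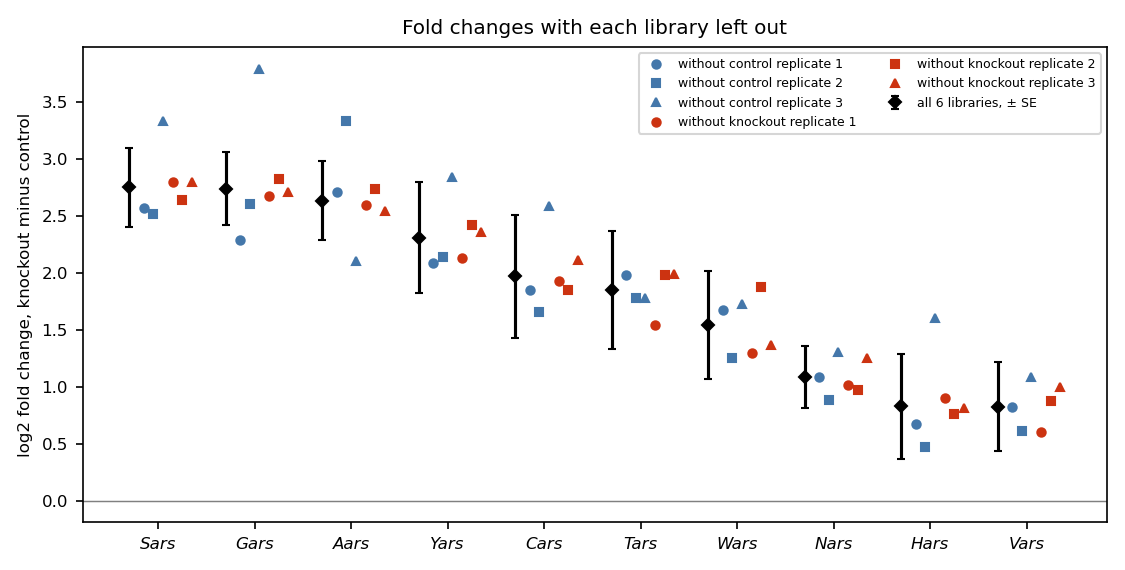
Log2 fold change of each member, knockout minus control (y axis), with all 6 libraries (black diamonds, ± SE) and with each library left out (blue, a control; red, a knockout; circle, square and triangle are replicates 1, 2 and 3). All values lie above 0, and leaving out control 3 moved Gars from 2.74 to 3.79 and Hars from 0.83 to 1.60.

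The members also differed in their share of the family's own counts, a measure that needs no scaling between libraries. Nars held 26.6% of the 139 control counts (exact binomial 95% interval 19.5 to 34.8) and 14.6% of the 841 knockout counts (12.3 to 17.2). Its share was at least 24.4% in every control and at most 17.8% in every knockout. Vars went from 13.7% (8.43 to 20.5) to 6.30% (4.76 to 8.16), and its shares did not overlap between the groups either, at 12.2% to 16.7% and 5.19% to 7.64%.

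Gars held 14.4% of control counts (9.02 to 21.3) and 25.1% of knockout counts (22.2 to 28.2), from 0% to 20.6% in controls and from 23.3% to 26.9% in knockouts. Sars went from 8.63% (4.54 to 14.6) to 15.3% (13.0 to 18.0), without overlap between the libraries of the groups. The share of Hars, at 4.88% to 10.3% in controls and 2.91% to 4.26% in knockouts, did not overlap either. The share of Aars ranged more widely among controls, from 1.47% to 19.5%, than among knockouts, from 13.6% to 17.5%. Intervals of the summed shares were apart in Nars, Vars and Gars alone, and those of the other 7 members, Sars, Aars and Hars included, overlapped between the groups. Shares have a fixed total, so a larger share of some members lowers that of others. The fitted levels of Nars and Vars were 2.12-fold and 1.77-fold higher in knockouts, although their shares were lower. As the fold changes of Sars, Gars and Aars chose the family, these shares carry no weight as support.

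**Figure D3:**
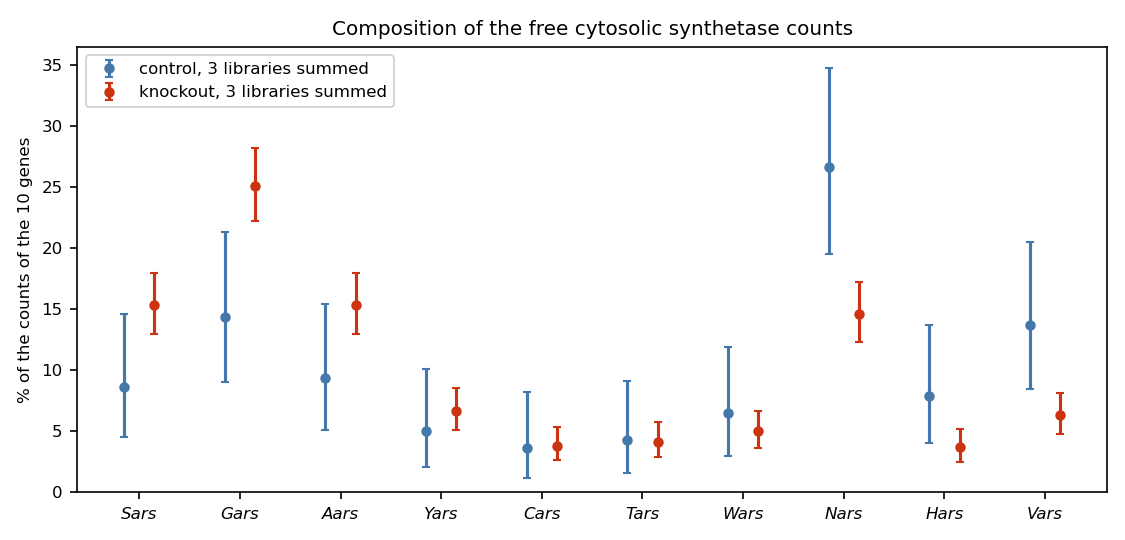
Share of each member in the counts of the 10 genes (y axis, percent, from 0), summed over the 3 controls (blue) and the 3 knockouts (red); bars are exact binomial 95% intervals, which cover counting error only. Nars was the largest member in controls at 26.6% and Gars in knockouts at 25.1%.

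Levels of different genes were compared per kilobase of exon (the union of annotated exons). In controls Nars had the highest level, 1.91 ± 0.490 CPM per kb (SD over 3 libraries), followed by Gars, Hars, Vars, Wars, Sars, Aars, Yars, Tars and Cars, the last at 0.166 ± 0.0987. The ranges of all neighbours in that order overlapped. In knockouts Gars stood highest, at 9.68 ± 1.18 CPM per kb, and its lowest library, at 8.34, was above the highest of Nars, the next, at 4.58. Nars (4.09 ± 0.740) and Sars (3.58 ± 0.404) overlapped in range. The lowest library of Sars, at 3.30, was above the highest of Aars, the fourth, at 2.22. From Aars (1.98 ± 0.306) through Hars, Wars, Vars, Yars and Tars to Cars (0.702 ± 0.110) each range overlapped the next. With the longest coding transcript as the length, an alternative chosen after the data were seen, the order of the first 4 in knockouts was the same, and Yars moved from the eighth to the fifth place.

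The synthetases of the multisynthetase complex were the nearest family for comparison. Of its 11 genes (8 synthetases and 3 scaffold proteins) 7 were tested, 4 were higher and 0 lower (edgeR adjusted p under 0.05), beside 6.66% and 6.78% of all tested genes. All 7 reached the low-count filter in the 3 knockouts and none in all 3 controls, so this count carries no more weight than that of the members. Lars, the leucyl enzyme, had 4, 5 and 5 counts in controls and 43, 38 and 36 in knockouts, with no overlap (5.26-fold; log2 fold change 2.40 ± 0.34, edgeR adjusted p = 2.67e-09). Iars, which loads isoleucine, rose 3.94-fold (edgeR adjusted p = 4.65e-07), and Eprs, which loads glutamate and proline, 3.69-fold (edgeR adjusted p = 3.13e-13). Mars1, which loads methionine, rose 3.31-fold (edgeR adjusted p = 0.00283), a call that DESeq2 did not make. Rars, Dars and Kars did not pass the test, with log2 fold changes of 0.69 ± 0.46, 0.54 ± 0.44 and -0.24 ± 0.40 (SE). Kars, like Gars, encodes both the cytosolic and the mitochondrial enzyme. The ratios of counts per effective library were 0.842 (95% Poisson interval 0.486 to 1.48) for Kars and 6.73 (4.25 to 11.2) for Gars. The fold change of Gars helped to choose the family, so nothing is read from this pair.

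The 8 synthetases of the complex together had 154 control and 664 knockout counts, a ratio of 2.75 (95% Poisson interval 2.31 to 3.30), beside 3.86 (3.22 to 4.65) for the free family. The free family includes Sars, Gars and Aars, whose fold changes chose it, so nothing is read from its larger ratio. Whether the families differ was not tested. The 3 scaffold proteins, Aimp1, Aimp2 and Eef1e1, had 17 and 28 counts, a ratio of 1.05 (0.556 to 2.05). Farsb, a subunit of the phenylalanyl enzyme, which is in neither list of synthetases above, went from 0, 3 and 4 to 6, 12 and 13 counts and was called higher, with a log2 fold change of 1.46 ± 0.51 (edgeR adjusted p = 0.0471). Farsb reached the low-count filter in the 3 knockouts and in 0 controls, so its call has the same limit as those of the members. Farsa, the other subunit, had 3 control and 4 knockout counts.

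As a sum, transcripts of the mitochondrial synthetases stood close to the level of the controls, but most single genes had few counts. Of 17 genes 3 were tested and 0 were called in either direction. The tested Lars2 holds 142288 control and 230231 knockout counts and was taken as a locus that collects ribosomal RNA reads, so sums leave it out. The other 16 had 34, 50 and 55 counts in controls and 54, 67 and 89 in knockouts, a ratio per effective library of 0.964 (95% Poisson interval 0.774 to 1.20). Iars2 alone gave 46 control and 61 knockout counts. Apart from Sars2, single genes ran from 0.255 (Pars2, 5 and 2 counts) to 2.07 (Yars2, 4 and 13 counts). In the 8 amino acids for which a free cytosolic and a mitochondrial enzyme could both be given a ratio, that of the cytosolic gene was the larger in all 8, but single pairs rested on few counts and the 95% intervals of no pair were apart. The free family was chosen with this contrast known, in part by Aars itself, so nothing is read from this count. For alanine the ratios were 6.33 (3.57 to 12.2) for Aars and 1.38 (0.490 to 4.44) for Aars2. For tyrosine they were 5.10 (2.32 to 13.3) for Yars and 2.07 (0.641 to 8.73) for Yars2. Sars2, with 1 count in all, received no ratio.

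**Figure D4:**
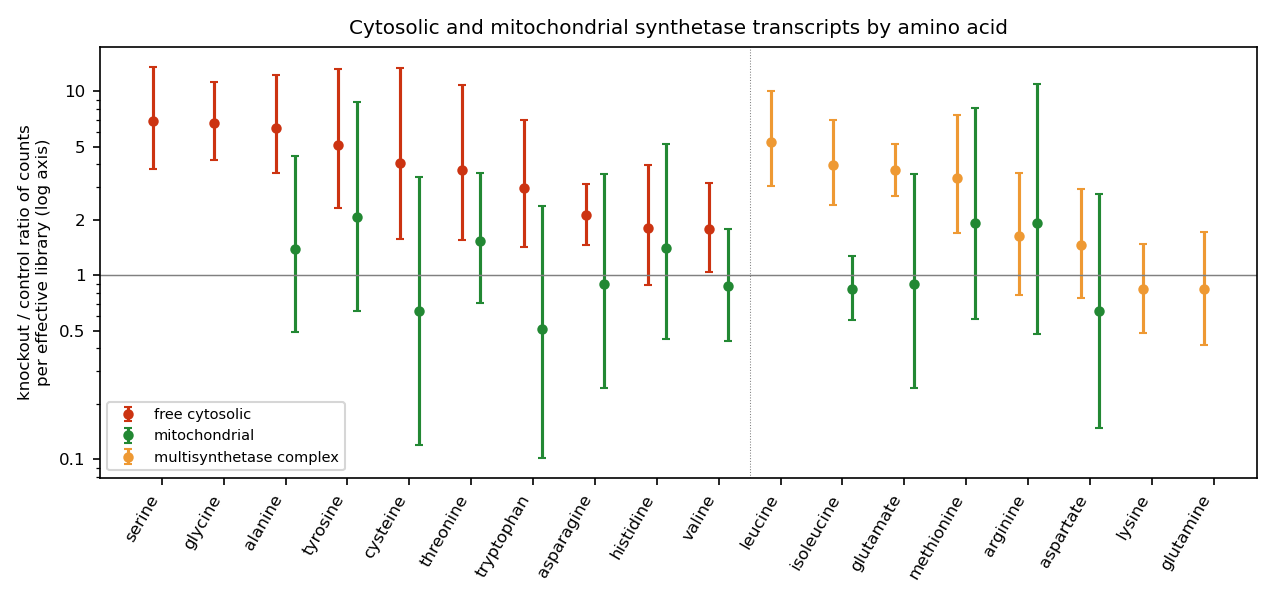
Ratio of knockout to control counts per effective library (y axis, log scale) for free cytosolic synthetases (red), synthetases of the multisynthetase complex (orange) and mitochondrial synthetases (green), by amino acid (x axis); bars are 95% Poisson intervals of counts summed over 3 libraries a group. Green points lie between 0.510 and 2.07, and Lars2, Sars2, Pars2 and the subunits of the phenylalanyl enzymes are not drawn.

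Genes around the charging reaction were counted from fixed lists. Among 15 regulators of the response to amino acid shortage 5 were tested, 3 were higher and 0 lower (edgeR adjusted p under 0.05), beside 6.66% and 6.78% of all tested genes. None of these 5 reached the low-count filter in all 3 controls, so the count has the same limit as that of the members. Atf4 had 3, 3 and 5 counts in controls and 30, 12 and 25 in knockouts (log2 fold change 1.93 ± 0.43, edgeR adjusted p = 2.73e-04). Atf5, a related factor, had 7, 4 and 10 against 31, 34 and 27 (1.47 ± 0.34, edgeR adjusted p = 3.96e-04). Trib3, a pseudokinase induced by ATF4, had no counts in controls and 34 in knockouts. Set against a floor of 3 counts for the 3 controls together, Trib3 was 7.23-fold higher. The lower 95% Poisson bound of its ratio, with no control counts, was 5.57. Among 22 genes of amino acid synthesis and uptake 12 were tested, 9 were higher and 0 lower, beside the same 6.66% and 6.78%. Only 2 of the 12 reached the filter in all 3 controls, so this count has the same limit. The genes called higher included Asns, which makes the asparagine that Nars loads, and Mthfd2, of one-carbon metabolism. Neither had counts in controls. Against the same floor Asns was 16.8-fold higher (lower 95% Poisson bound of its ratio 13.3) and Mthfd2 14.3-fold higher (lower bound 11.3). Psat1, of serine synthesis, had 1 and 25 counts (ratio 16.0, 95% Poisson interval 2.61 to 655), and Slc7a5, a carrier of large neutral amino acids, 5 and 72 (log2 fold change 3.13 ± 0.50). Of 6 elongation factors, all tested, 2 were higher and 0 lower, beside 6.66% and 6.78% of all tested genes, and 3 reached the filter in all 3 controls. The 2 were Eef1a1, which carries charged tRNA to the ribosome, 2.05-fold, and Eef2, the translocase, 1.57-fold. None of 9 relatives of the synthetases reached the low-count filter, and they had 35 control and 65 knockout counts in all. TGATGNAA was in 3 of 16 promoter windows of the stress regulators (18.8%), 4 of 21 of amino acid synthesis and uptake (19.0%), 1 of 10 of the complex and 0 of 15 of the mitochondrial synthetases.

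The genes most like the family in pattern were found by the root mean square difference, over the 6 libraries, between a gene's centred log2(CPM + 1) values and the mean of the members. The nearest tested nuclear genes outside the family were Gyg, the primer protein of glycogen synthesis (0.152), Slc25a39, a carrier of the inner mitochondrial membrane (0.171), Enah, an actin regulator (0.180), Ctsl, the lysosomal protease cathepsin L (0.182), and Gtpbp2, a GTPase linked to ribosome rescue (0.189). Ctsl, the most counted of these, had 10, 16 and 16 counts in controls and 72, 77 and 93 in knockouts. On the same measure Yars lay at 0.176, and the other 9 members, from 0.201 for Cars to 1.11 for Gars, lay farther from their own mean than all 5 of these genes. The 5 were taken as the nearest of many genes, so their small values follow from that choice and nothing is read from this order.

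Gene-assigned totals lay between 2867067 and 3234729 counts in controls and between 1062030 and 1227997 in knockouts, and the share of mtDNA transcripts was 81.9% ± 2.10 and 22.8% ± 2.65 (SD over 3 libraries). This left 76949 to 109351 nuclear counts outside the 5 loci in controls and 126339 to 164004 in knockouts, so a member with few counts was measured less precisely in controls. All 10 cardiomyocyte markers of a fixed list were tested, 0 were higher and 6 lower, beside 6.66% and 6.78% of all tested genes. Their summed level was 6075 to 6800 CPM in controls and 4600 to 5273 in knockouts. Macrophage markers summed to 47.8 to 66.2 and 17.4 to 23.6 CPM (3 of 7 tested, 3 lower), endothelial markers to 148 to 173 and 109 to 130 (1 of 7 tested lower), and smooth muscle and pericyte markers to 132 to 151 and 80.4 to 116 (2 of 5 tested lower). Fibroblast markers summed to 688 to 740 and 587 to 662 (1 of 7 tested lower), blood markers overlapped between the groups, and no marker was at 0 in all libraries. The part of these shifts in the values of the members was not tested.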

How the data were processed

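RNA of crude heart mitochondria was sequenced as paired ends on a MiSeq, per the labels' protocols. Per the submitters' processing notes the build was GRCm38 and the tools included edgeR 3.11.2, featureCounts 1.3.5-p4, HISAT 0.1.6 and R 3.2.0. The authors' deposited raw counts, 1 file a library, were used as they stand. The authors' deposited table gives log2 fold changes, average log2 CPM, a likelihood ratio score, p-values and false discovery rates. The deposited normalised files were not used. Strand, multiple alignments and the gene annotation were not given in the sources used here.

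Symbols, positions and exon lengths came from GENCODE M21, which gave 37656 nuclear rows a symbol and left 1486 without one. Counts were fitted with edgeR 4.0.16 in R 4.3.3 (robust quasi-likelihood, TMM, filterByExpr with a minimum count of 10 and a minimum total of 15, 2-sided, Benjamini-Hochberg over all 3363 tested genes). The fit was also run on simulated data. The genes changed there had more counts than Cars, Hars, Tars, Vars, Wars and Yars, so the fit was not checked at the depth of these members. CPM used TMM-scaled libraries, and an SE is that implied by the F statistic. DESeq2 1.42.0 was an alternative. Each library was taken as 1 mouse, so p-values measure the spread between these libraries.

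The members, the lists and the 5 loci that collect ribosomal RNA reads were chosen with earlier results of these data known. Named were all members, up to 4 called genes of each list with the largest change, the 5 genes nearest in pattern, and Polrmt. Genes named beyond this rule were chosen after their values were seen.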

Additional observations from a re-analysis of the deposited data

How the results depend on the processing

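The 10 log2 fold changes stayed above 0 under every alternative in which the gene was tested. The count of members called higher, 8, was 4 with DESeq2, 5 with the filter on nuclear library sizes and 5 without mtDNA and the loci that collect ribosomal RNA reads (6 members were tested in each of these last fits, and Cars, Hars, Tars and Wars were not), 10 with no scaling beyond the library size, and between 5 and 7 with 1 library left out, the lowest without control 2 or without knockout 1. Sars, Gars, Aars and Yars were called in all 13 alternatives, and Nars in 12. The alternatives reuse the contrast by which Sars, Gars and Aars chose the family. These calls, and the summed counts that follow, thus carry no weight as support. The ratio of the summed counts ran from 3.85 to 5.06 with 1 library left out and was 3.95 in TMM-scaled CPM. The replicate block changed no call of a member (8 called), and gave 212 genes higher and 217 lower in all. The deviations of same-numbered libraries had correlations of -0.02, 0.02 and 0.02, and control 1 correlated best with knockout 3, so the numbers were not used as pairs.

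Scaled by library size alone, all tested genes had a median log2 fold change of 2.06, and 7 genes of the multisynthetase complex and 3 mitochondrial synthetases were then called higher. Over all genes 224 were higher and 228 lower, so that 49.6% of calls were higher. DESeq2 gave 89 and 73, no scaling 3325 and 18 (99.5% higher), and no low-count filter 196 and 117 (62.6% higher). With 1 library left out the counts were 140 to 181 higher and 136 to 171 lower, with 146 and 149 without control 2, 140 and 159 without control 3, and 143 and 136 without knockout 1. Per kilobase of the longest coding transcript, the levels in knockouts were higher than per kilobase of exon for all members. That is arithmetic, because no transcript is longer than the union of annotated exons. Depth limits the members most in controls, where 5 to 37 counts a gene stand behind each ratio.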
